A study of Rattus norvegicus with 8 samples.

Results

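CAG and CTG trinucleotides in which the cytosine carries methylation outside CpG are described here in rat brain, with both strands of the same site set against each other. CHG positions (a cytosine, then A, C or T, then G) were taken on chromosomes 1 to 20 where the deposited dinucleotide was CA or CT and where all 8 libraries listed the position. The rule used no methylation value. It gave 1327479 positions, 670674 CAG and 656805 CTG, which were 21% of the 6307532 positions of any context shared by the 8 libraries. At 131105 sites the cytosine of one strand and the cytosine opposite the G of that strand were both listed in every library, and these sites hold 19.8% of the members.

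The data are reduced representation bisulfite sequencing (RRBS) libraries of genomic DNA, a method in which MspI fragments are treated with bisulfite so that unmethylated cytosine is read as T. Hippocampus and hypothalamus gave 4 libraries each. All were from male Sprague Dawley rats, 2 months old at the start, whose feed held the omega-3 fatty acid docosahexaenoic acid (DHA) for 6 weeks, so the diet is shared by both groups and tissue is the only contrast. The labels' treatment text also names fructose as a possible feed for the study as a whole, while the label of each library gives DHA alone. The labels do not say whether libraries came from separate animals, so p-values apply to these libraries alone and not to animals. Each tissue was dissected whole and holds many cell types, and a low level in many cells cannot be told apart from a high level in few. Marker genes of the tissues could not be checked in methylation data, since the gene table at hand is of another assembly and no gene or feature is named.

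Most cytosine methylation in mammals lies at CpG, where both strands carry a cytosine and maintenance enzymes copy the mark to the new strand after replication. Methylation outside CpG builds up in neurons after birth, is written mainly by the methyltransferase DNMT3A, and is most frequent where the cytosine is followed by A. In plants CHG methylation is kept on both strands by a dedicated enzyme. The reverse complement of CAG is CTG, so every such site offers a cytosine followed by A on one strand and a cytosine followed by T on the other.

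The sites below show what a member looks like, and were picked by a fixed rule on their levels in both strands, so their values describe them and test nothing. Each is read 5′ to 3′ on the strand that carries CAG, with the CAG in capitals and 11 letters on each side of its cytosine. Letters were assembled from the base, context and dinucleotide columns of the deposited files, and n marks a letter those columns do not give. Coordinates cover the trinucleotide and are as deposited, rn5 per the submitters' processing notes. The animals' own sequence was not examined, so a base that differs from these letters would go unseen. A G in place of the A of CAG would make the cytosine a CpG.

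chr19:26892804-26892806, minus strand: tcaaggtgnctCAGagnaggnnn

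chr4:238667465-238667467, minus strand: cccccagagnnCAGtgtgnncac

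chr17:8081535-8081537, plus strand: gctgnccaggnCAGnnncctcag

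chr4:9983463-9983465, minus strand: gncacacctccCAGagnnnnnna

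chr3:135374445-135374447, minus strand: gccatgctgtgCAGnncacgctg

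At the first 3 of these sites the CAG strand read as almost fully methylated and the CTG strand of the same site did not. At the chromosome 19 site the CAG strand read 95.6%, 95.9%, 96.7% and 94.7% in hippocampus (libraries 1 to 4, the order used throughout) and 97.2%, 98.9%, 100% and 100% in hypothalamus. The CTG strand there read 0%, 1.03%, 0% and 1.1%, then 1.33%, 1.41%, 0% and 3.77%, from 21 to 97 calls, so that even in the shallowest library a count of 0 allows a level of no more than 14.3%. No library overlapped between strands. The mean difference was 96.3 points ± 1.89 (SD, n = 8). The chromosome 4 site at 238667467 ran from 91.5% to 100% on the CAG strand and had a mean of 1.11% ± 1.27 on the other. The chromosome 17 site ran from 90.0% to 100% against a mean of 0.482% ± 0.684. The rule's remaining site of this kind, on chromosome 5 with its cytosine at 102695436 on the minus strand, held 94.6% to 97.3% against 1.19% ± 1.60.

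The fourth sequence shows the opposite order. Its CAG strand read 0%, 0%, 3.81% and 2.44% in hippocampus and 3.8%, 1.92%, 0% and 2.56% in hypothalamus. Its CTG strand read 40%, 46.6%, 57.4% and 46.2%, then 45.2%, 15.6%, 31.8% and 48.9%, above the CAG strand in 8 of 8 libraries. A site on chromosome 5 with its CAG cytosine at 41190170 on the minus strand was stronger still, with a CTG strand of 73.9% to 97.3% against a CAG strand of 0% to 4.12%. Sites of this order were few, as the counts below show.

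The fifth sequence is one of the pair of sites with the highest level on the weaker of the 2 strands. Its CAG strand averaged 9.03% ± 3.8 and its CTG strand 9.0% ± 2.64 (SD, n = 8). Its companion, on chromosome 5 with the CAG cytosine at 146350196 on the plus strand, averaged 8.22% ± 4.62 and 7.23% ± 3.36. Among paired sites with at least 20 calls on each strand in every library, no other weaker strand was higher, and these values lay far below those of the one-sided sites.

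Before levels were compared, each library's level at CHH positions followed by C (1549380 positions, H being A, C or T) was taken as its background, because this context carries little methylation in brain and unconverted cytosine shows there. Hippocampus 1 to 4 read 0.370%, 0.332%, 1.76% and 1.85% there, and hypothalamus 1 to 4 read 1.0%, 0.310%, 0.412% and 1.01%. Hippocampus 3 and 4 stood apart, with hypothalamus 1 and 4 between them and the rest. Total calls ran from 178178404 in hypothalamus 3 to 625653602 in hippocampus 4, and the median member had 21 calls in hypothalamus 3 and 32 in hypothalamus 4, against 55 to 74 in the other 6. Mitochondrial DNA, which is usually taken to carry next to no such methylation, gave a second reading of what conversion leaves. Its CHH positions followed by A read 0.388%, 0.285%, 3.16% and 3.35%, then 1.35%, 0.225%, 0.338% and 1.64%, and those followed by C read 0.272%, 0.228%, 1.76% and 1.84%, then 1.03%, 0.257%, 0.367% and 1.43%. In hippocampus 3 and 4 the mitochondrial reading before A was therefore 1.40 and 1.51 points above that before C, a gap that subtracting the CHH CC level does not remove. These readings rest on 23 mitochondrial positions followed by A and 11 followed by C, and their part in the nuclear CA values was not tested. The main library comparisons and the averages they rest on are given with and without these 2 libraries.

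CAG carried more methylation than CTG in every library, and whether CTG exceeded background depended on the background used. The CAG level was 1.37%, 1.14%, 3.82% and 4.06% in hippocampus and 2.25%, 1.12%, 1.47% and 2.14% in hypothalamus. The CTG level was 0.482%, 0.398%, 2.08% and 2.20%, then 1.19%, 0.368%, 0.499% and 1.43%. After subtraction of the background CAG stood at 1.0, 0.805, 2.07 and 2.21 percentage points, then 1.25, 0.806, 1.06 and 1.12, a mean of 1.29 ± 0.545 (SD, n = 8). CTG stood at 0.112, 0.0659, 0.327 and 0.353 points, then 0.184, 0.0585, 0.0870 and 0.419, a mean of 0.201 ± 0.145. The lowest CAG value, 0.805, was above the highest CTG value, 0.419. The means without hippocampus 3 and 4 were 1.01 and 0.154 points.

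Against mitochondrial CHH followed by A, CAG stood higher in 8 of 8 libraries, by 0.984, 0.851, 0.665 and 0.711 points in hippocampus and 0.903, 0.890, 1.13 and 0.493 in hypothalamus. Hippocampus 3 and 4 were then no longer the highest. Mitochondrial CHH followed by T (13 positions) read 0.329%, 0.275%, 2.14% and 2.32%, then 1.12%, 0.267%, 0.366% and 1.71%. CTG minus that reading was 0.153, 0.122, -0.0576 and -0.112 points in hippocampus and 0.0640, 0.101, 0.133 and -0.277 in hypothalamus, a mean of 0.0158 ± 0.152, so CTG had no excess over it in hippocampus 3, hippocampus 4 and hypothalamus 4.

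**Figure D1:**
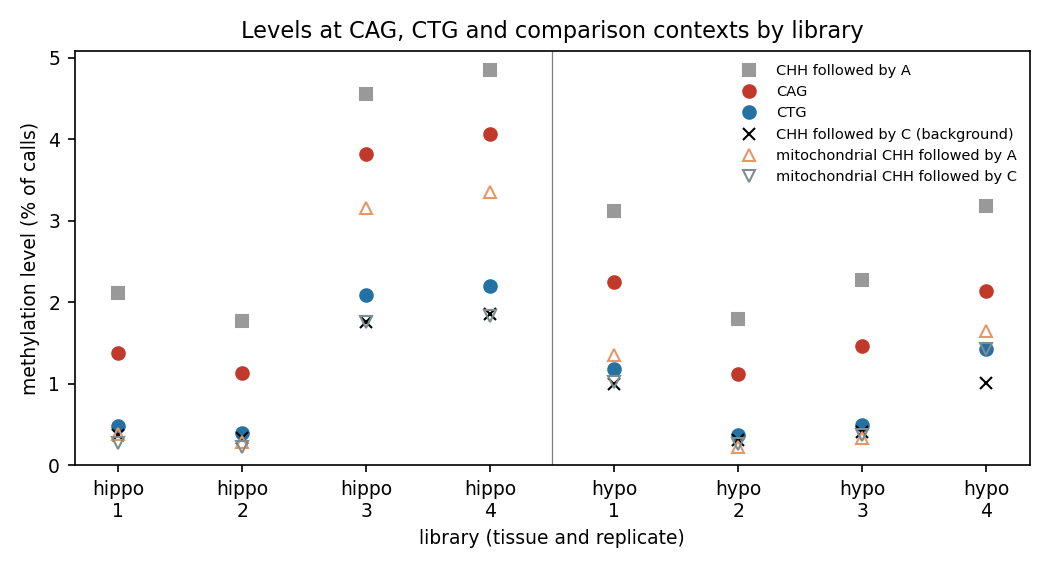
Methylation level (% of calls, vertical axis) in each library (horizontal axis, hippocampus left and hypothalamus right) at CAG, CTG, nuclear CHH followed by A or C, and mitochondrial CHH followed by A or C, with 1 point per library and context. CAG lies above CTG in 8 of 8 libraries, CTG lies 0.0585 to 0.419 points above the CHH CC background, and the mitochondrial points followed by A rise to 3.16% and 3.35% in hippocampus 3 and 4.

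The difference between CAG and CTG within a library was 0.890, 0.739, 1.74 and 1.85 points in hippocampus and 1.07, 0.747, 0.968 and 0.705 in hypothalamus. Its mean was 1.09 points ± 0.455, with CAG higher in 8 of 8 libraries (two-sided exact sign-flip permutation test over libraries, p = 0.00781, the smallest that 8 libraries can give, and the same after Benjamini-Hochberg adjustment over 6 within-library comparisons). Without hippocampus 3 and 4 it was 0.853 points, in the same direction in all 6 remaining libraries (exact p = 0.0312). With mitochondrial CHH levels before A and before T as the backgrounds of CAG and CTG it was 0.812 points (exact p = 0.00781).

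Set as a ratio, background-subtracted CAG was 2.68 times CTG in hypothalamus 4, 6.26 to 8.93 times in hypothalamus 1 and hippocampus 1, 3 and 4, and 12.1 to 13.8 times in the other 3 libraries. The ratio is unsteady because its denominator lies close to 0. In hypothalamus 4 CTG was the highest of the 8 in points while CAG was not, and the mitochondrial CHH CC reading of that library, 1.43%, was above its nuclear one, 1.01%. The part of that in the CTG value was not tested.

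Levels also differed between contexts that share a dinucleotide and differ in the last base. CAG was lower than CHH positions followed by A, the context with the same dinucleotide but a last base other than G. CHH followed by A read 2.12%, 1.77%, 4.56% and 4.85% in hippocampus and 3.12%, 1.80%, 2.28% and 3.17% in hypothalamus, above CAG in 8 of 8 libraries, and the difference (CAG minus CHH CA) was -0.788 points ± 0.125 (SD, n = 8, exact sign-flip permutation p = 0.00781). CTG was likewise lower than CHH followed by T, by a difference of -0.482 points ± 0.110, in 8 of 8 libraries (exact p = 0.00781). Both differences varied less between libraries than the levels did. Without hippocampus 3 and 4 they were -0.796 and -0.496. The contexts lie at different positions whose surroundings were not matched, so place and last base cannot be told apart here.

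Reading both strands of the same sites removes differences in where the 2 trinucleotides lie. At the 131105 paired sites the CAG strand read 1.29%, 1.05%, 3.72% and 3.96% in hippocampus and 2.25%, 1.04%, 1.39% and 2.12% in hypothalamus. The CTG strand read 0.471%, 0.381%, 2.05% and 2.17%, then 1.24%, 0.352%, 0.499% and 1.49%. The CAG strand was higher by 0.824, 0.668, 1.68 and 1.80 points in hippocampus and by 1.01, 0.691, 0.889 and 0.635 points in hypothalamus, a mean of 1.02 ± 0.459 in 8 of 8 libraries (two-sided exact sign-flip permutation test, p = 0.00781, adjusted 0.00781). Over all members, most of which are not in these pairs, CAG minus CTG was close to this, at 1.09 points. Without hippocampus 3 and 4 the strand difference was 0.786 points in 6 of 6 libraries (exact p = 0.0312), and against mitochondrial backgrounds it was 0.748.

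As a check on strand itself, the same sites were split by reference strand instead of by trinucleotide. The cytosine of the plus strand minus that of the minus strand gave -0.0147 to 0.0215 points by library, with a mean of 0.000162, positive in 3 of 8 libraries (exact sign-flip permutation p = 0.977). The asymmetry therefore went with the letters of the trinucleotide and no difference was detectable by the strand of the reference.

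**Figure D2:**
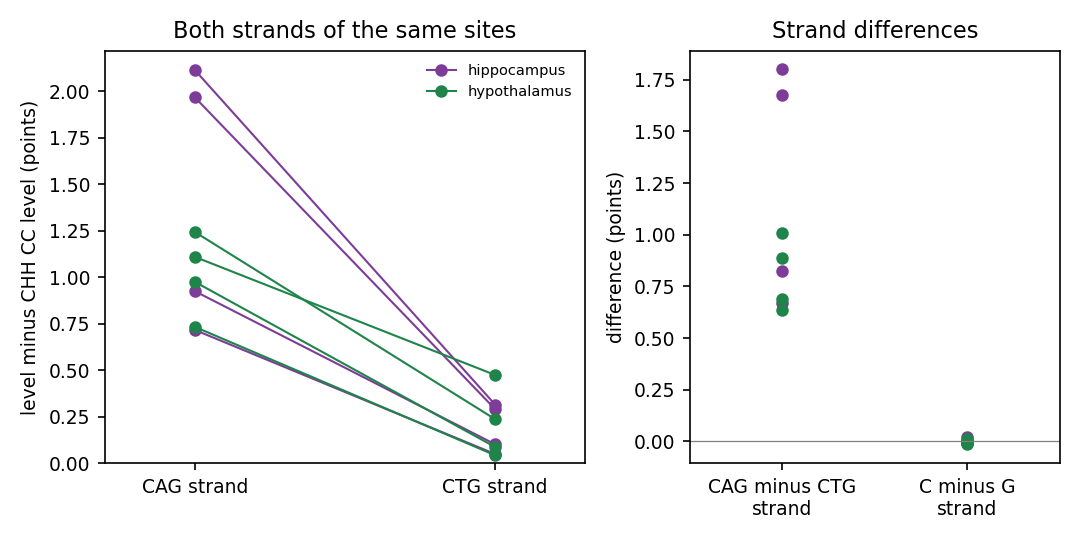
Left, level minus CHH CC level (percentage points) on the CAG strand and the CTG strand of the same 131105 sites, with 1 line per library coloured by tissue; right, the within-library difference for CAG minus CTG strand and for plus (C) minus minus (G) reference strand. Every line falls from CAG to CTG, by 0.635 to 1.80 points, while the reference strand differences stay between -0.0147 and 0.0215.

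High levels at single sites were mostly found at CAG. A mean level of 5% or more over the 8 libraries was reached by 41959 CAG sites (6.26%) and 1210 CTG sites (0.184%), and 10% or more by 10597 (1.58%) and 253 (0.0385%). At 50% or more there were 620 CAG and 66 CTG sites. By the mean of the 6 libraries other than hippocampus 3 and 4, 5% was reached by 37185 CAG and 1315 CTG sites 10% by 10486 and 257, and 50% by 621 and 66. In every library separately, 10% or more was reached at 2284 CAG and 84 CTG sites. At the other end, 4950 CAG sites (0.738%) and 19111 CTG sites (2.91%) had no methylated call in any library.

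**Figure D3:**
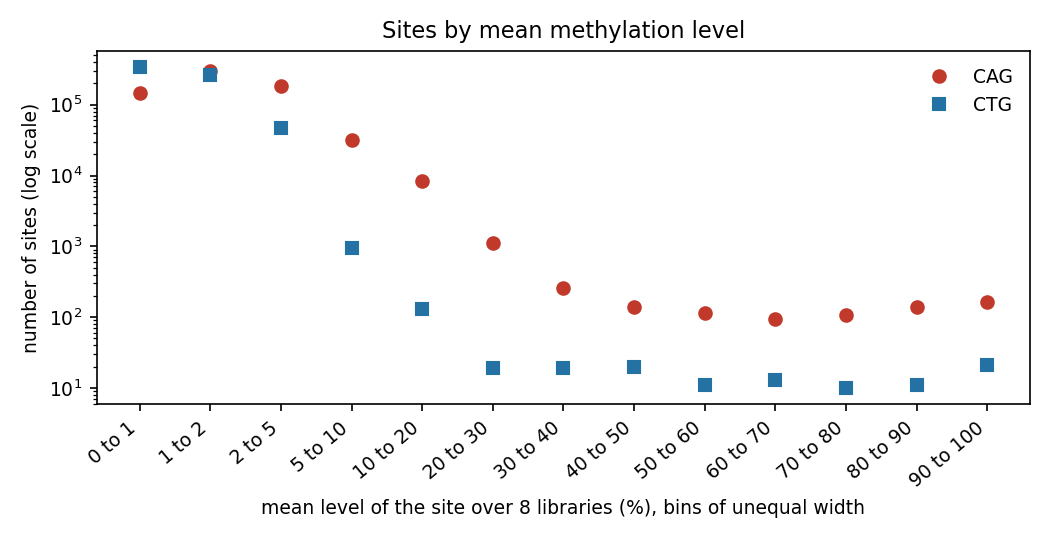
Number of CAG and CTG sites (vertical axis, log scale) by mean level over 8 libraries (horizontal axis, percent, bins of unequal width). CTG exceeds CAG in the bin under 1% (342582 against 146484 sites), CAG exceeds CTG in every bin above it, and CAG counts fall to 94 sites at 60% to 70% before rising to 164 at 90% to 100%.

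The distribution of CAG had a long low shoulder and a small separate group at high level. The part in that group of sites where the animals' sequence differs from the deposited letters was not tested. Between 10% and 20% there were 8470 CAG sites, between 60% and 70% there were 94, and at 90% or more there were 164. The group at 50% or more in every library counted 375 CAG sites with a median of 88.9% and 39 CTG sites with a median of 92.4%, and among the CAG sites only 2 neighbouring pairs of the group lay within 100 bases of each other. The 620 CAG sites at a mean of 50% or more held between 1.67% and 6.51% of the methylated CAG calls of a library. Leaving out every site of 50% or more in any library left a CAG minus CTG difference of 1.01 points and a strand difference of 0.978 points (exact p = 0.00781 for each), so most of the asymmetry lay outside these sites. The 41959 CAG sites with a mean of 5% or more held 15.2% to 41.5% of the methylated CAG calls of a library, before any background was subtracted.

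Of sites with at least 20 calls in every library, the rule named those with the highest lowest library. The CAG site on chromosome 2 with its cytosine at 107560401 (minus strand) ran from 96.7% to 100% and had 34 to 102 calls. That on chromosome 2 at 236748813 (plus) ran from 96.2% to 100%, that on chromosome 11 at 34878316 (plus) from 95.1% to 100%, and that on chromosome 17 at 12845386 (plus) from 95.1% to 100%. The CTG site on chromosome 9 at 101336106 (minus) ran from 97.2% to 100% and that on chromosome 14 at 108705977 (minus) from 95.7% to 99%. At all 6 sites the mean of each tissue lay between 96.4% and 99.4%.

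Few sites were methylated on both strands. A CTG strand of 5% or more was found at 157 of all 131105 paired sites (0.120%), at 29 of the 7524 with a CAG strand of 5% or more (0.385%) and at 7 of the 1785 with a CAG strand of 10% or more (0.392%), a share above that of all paired sites but still small. A CTG strand of 10% or more was found at 29 paired sites (0.0221%) and at 1 of the 1785. Only 12 paired sites had a CTG strand of 20% or more, too few to read from their overlap, which was 0, with the 296 sites whose CAG strand reached 20%. Across the 1785 sites the CTG strand averaged 1.2% ± 0.751 over libraries, against 1.08% ± 0.759 at all other paired sites, a within-library difference of 0.124 points ± 0.103 with 7 of 8 libraries higher. With hippocampus 3 and 4 left out the averages were 0.846% and 0.737%. At the 68 sites whose CAG strand was at 50% or more (mean 72.7%) the CTG strand averaged 1.11%. Over the 131105 sites the means of both strands had a Pearson r of 0.0325 and a Spearman rho of 0.0744, given as a description across sites that share libraries and their background.

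The reverse choice gave steps of either sign. At the 157 paired sites with a CTG strand of 5% or more, the CAG strand averaged 3.46% ± 1.0 against 2.10% ± 1.17 elsewhere, higher by 1.35 points ± 0.213 in 8 of 8 libraries, and without hippocampus 3 and 4 they were 2.98% and 1.52%. At the 29 sites with a CTG strand of 10% or more the CAG strand averaged 2.39%, higher than elsewhere by 0.283 points ± 0.410. This was higher in 7 of 8 libraries, with a mean within the spread between libraries. At the 12 sites with a CTG strand of 20% or more the CAG strand averaged 1.15%, which was 0.952 points lower than elsewhere and lower in 8 of 8 libraries. These are descriptions of sites chosen on one strand.

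A test of each paired site on its 8 within-library differences (limma, adjusted over all tested sites) was run on the 2483 sites whose mean over both strands was 5% to 95%. It called 1402, which is 56.5% of those tested, at an adjusted p under 0.05 and 10 points or more. Sites mostly passed the 5% limit through 1 strand alone, so that a difference was nearly forced, and its direction was that of the strand which admitted the site. The counts are therefore a description and support nothing. The CAG strand was higher at 1385 of the called sites and the CTG strand at 17, with median differences of 13.4 and -39.7 points. Among all 2483 the CAG mean was higher at 2424 (97.6%), and it was higher in 8 of 8 libraries at 1946 (78.4%). Between the strands of the chromosome 3 site printed above, chosen for its weaker strand, the difference was 0.0231 points, and at its companion on chromosome 5 it was 0.992 points. The 4 sites led by a methylated CAG strand differed by 94.2 to 96.3 points and those at 41190170 and 9983465 by -85.7 and -39.7 points.

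CAG methylation followed the CpG methylation of its surroundings. Members were sorted by the mean CG level of the 1000-base tile that holds them, for tiles with at least 3 shared CG positions. In tiles under 20% (123709 CAG sites) background-subtracted CAG was 0.0764, 0.000727, 1.27 and 1.35 points in the hippocampus libraries and 0.152, -0.0248, 0.0152 and -0.00203 in those of hypothalamus. In 6 of the libraries CAG was thus within 0.152 points of the background over all positions, and in hippocampus 3 and 4 it was not. CHH followed by C in these same tiles read lower than that background, at 0.315%, 0.283%, 1.63% and 1.71%, then 0.910%, 0.259%, 0.353% and 0.947%. CAG in these tiles read 0.446%, 0.332%, 3.03% and 3.20%, then 1.16%, 0.285%, 0.427% and 1.01%, above CHH followed by C in every library. The mitochondrial reading before A minus that before C was 0.116, 0.0574, 1.40 and 1.51 points in hippocampus and 0.325, -0.0319, -0.0291 and 0.218 in hypothalamus. It was highest in hippocampus 3 and 4 and below 0 in hypothalamus 2 and 3. Its part in these values was not tested.

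In tiles of 80% or more (245410 CAG sites) the levels were 1.28, 1.07, 2.32 and 2.48 points in hippocampus and 1.56, 1.06, 1.33 and 1.39 in hypothalamus. The means over 8 libraries from the lowest bin to the highest were 0.355, 1.03, 1.43, 1.59 and 1.56 points. The rise of the mean was thus steep up to 40% to 60%, with no further rise above 60% to 80%. In tiles of 60% to 80% CAG was 1.279, 1.02, 2.31 and 2.45 points in hippocampus and 1.62, 1.12, 1.41 and 1.49 in hypothalamus. From there to the highest bin it rose slightly in every hippocampus library and fell in every hypothalamus library, which was not tested. These means were, with hippocampus 3 and 4 left out, 0.0363, 0.768, 1.17, 1.32 and 1.28 points. Sites in tiles with fewer than 3 CG positions (116077) stood at 1.53 points.

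**Figure D4:**
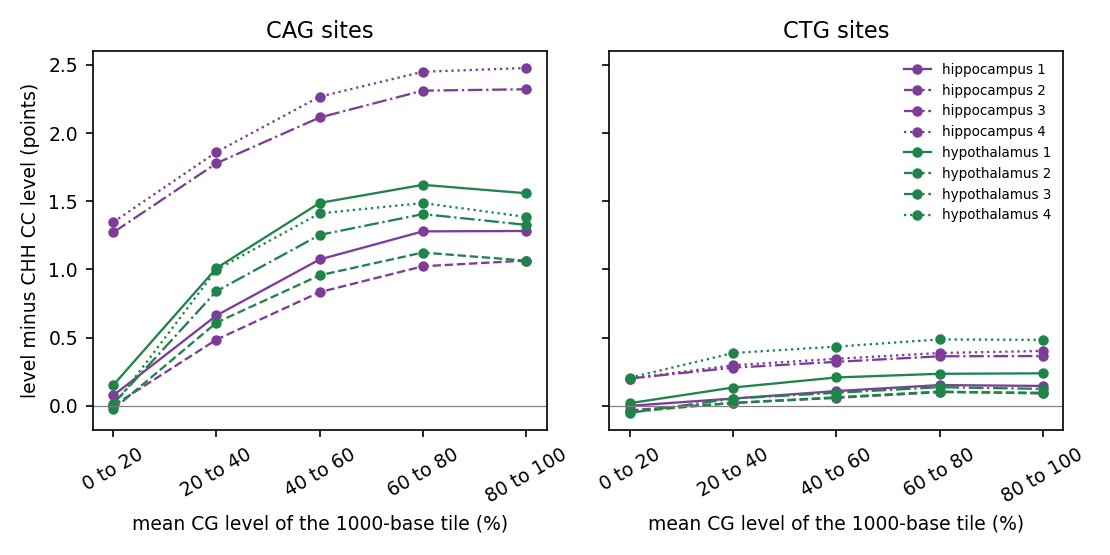
Level minus CHH CC level (percentage points) at CAG sites (left) and CTG sites (right) by the mean CG level of the surrounding 1000-base tile (percent, 5 bins), with 1 line per library coloured by tissue; both panels share 1 vertical scale. CAG lines rise by 1.05 to 1.41 points from the lowest to the highest bin in 8 of 8 libraries, and CTG lines by 0.129 to 0.278 points.

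The step from tiles under 20% to tiles of 80% or more cancels a background that is constant over tiles, and hippocampus 3 and 4 no longer stood apart in it. For CAG it was 1.21, 1.06, 1.05 and 1.13 points in hippocampus and 1.41, 1.09, 1.31 and 1.39 in hypothalamus, a mean of 1.21 ± 0.146, up in 8 of 8 libraries (two-sided exact sign-flip permutation test, p = 0.00781, adjusted 0.00781). For CTG it was 0.146, 0.129, 0.165 and 0.203, then 0.219, 0.135, 0.176 and 0.278, a mean of 0.181 ± 0.0502, up in 8 of 8 (exact p = 0.00781). The CAG step was 4.99 to 8.28 times the CTG step (mean 6.93). CHH positions followed by C, the background context, rose over the same bins by 0.114 points ± 0.0511, a step of the same order as that of CTG. The CTG step exceeded theirs by 0.0672 points ± 0.0617, in 7 of 8 libraries, by most in hypothalamus 4 (0.189), and fell short of it in hippocampus 3 (-0.0175). With hippocampus 3 and 4 left out the steps were 1.24 points for CAG, 0.180 for CTG and 0.0890 for CHH followed by C, and CTG exceeded the last by 0.0913. The CAG step, at 1.05 points or more in each library, was far above the highest CHH CC step, 0.196.

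The strand difference at paired sites showed the same dependence. In tiles under 20% (30766 paired sites) the CAG minus CTG strand difference was 0.0596, 0.0243, 1.08 and 1.16 points in hippocampus and 0.125, 0.0170, 0.0531 and -0.224 in hypothalamus. In tiles of 80% or more (46933 paired sites) it was 1.14, 0.934, 1.93 and 2.07, then 1.32, 0.971, 1.15 and 0.862. Where CpG methylation was low, hippocampus 1 and 2 and hypothalamus 1 to 3 thus had an asymmetry of 0.0170 to 0.125 points, and in hypothalamus 4 its sign was opposite. CAG sites with a mean of 10% to 50% made up 0.0453% of the sites in the lowest bin (56 sites) and 0.672%, 1.54%, 1.93% and 1.93% in the bins above. None of the 123709 CAG sites in the lowest bin reached a mean of 50%, against 268 in the highest.

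A CAG site near a methylated CAG site on the same strand was itself more methylated. Sites within 50 bases of a CAG at 10% to 50% (11784 sites) averaged 2.81 points over background ± 0.501 (SD, n = 8), and those near a CAG under 5% (559657 sites) averaged 1.22 ± 0.550, and a site can be in both sets. The first was higher in 8 of 8 libraries, by the narrowest margin in hippocampus 3, at 3.25 against 2.01. The averages without hippocampus 3 and 4 were 2.61 and 0.933. Neighbouring cytosines can lie on the same reads and in the same tile, and the part of the tile's CpG level in this was not tested.

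The bases around the trinucleotide went with its level. They are known from the deposited columns only where a neighbouring listed cytosine reveals them, here for sites with a C 2 bases before the trinucleotide or with a C right after it, and the values are for tiles with a CG level of 60% or more. This was looked at after earlier results were known and is given without a test. CACAG sites (31204) averaged 2.48 points over background, CGCAG sites (6978) 2.22, CTCAG sites (28073) 1.56 and CCCAG sites (32294) 1.17. CACAG was above CCCAG in 8 of 8 libraries, with values of 2.17, 1.81, 3.29 and 3.54 in hippocampus and 2.58, 1.91, 2.30 and 2.24 in hypothalamus against 0.954, 0.782, 1.75 and 1.86, then 1.2, 0.820, 1.03 and 0.934. Without hippocampus 3 and 4 the order was the same, at 2.17, 2.02, 1.36 and 0.954. With sites of 50% or more in any library left out CACAG stood at 2.36 and CCCAG at 1.12, while the CGCAG value was 1.39, so that the value for G before the site rested in large part on few strongly methylated sites. The place of G also changed with the tiles: over all tiles CACAG stood at 2.11 points, CTCAG at 1.28, CGCAG at 1.12 and CCCAG at 0.923.

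On the other side, CAGCC sites (22990) averaged 2.69 points, CAGCA sites (27150) 2.27, CAGCT sites (24473) 1.92 and CAGCG sites (7155) 1.41. Leaving out hippocampus 3 and 4 gave 2.51, 2.03, 1.68 and 1.06. CTG sites showed the same order before the site for A and C, with CACTG (23681 sites) at 0.392 points and CCCTG (25417) at 0.0524, and CACTG was above CCCTG in 8 of 8 libraries. Hippocampus 3 and 4 carried much of the CACTG mean, at 0.771 and 0.835, and without them it was 0.255 and that of CCCTG 0.0645. CTCTG sites (34828) had 0.0962 to 0.352 points in 7 libraries and 1.51 in hypothalamus 4, the library in which CTG stood highest. Their mean was 0.343 over 8 libraries and 0.390 without hippocampus 3 and 4, then above CACTG, so the order of A and T before CTG rested on single libraries.

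**Figure D5:**
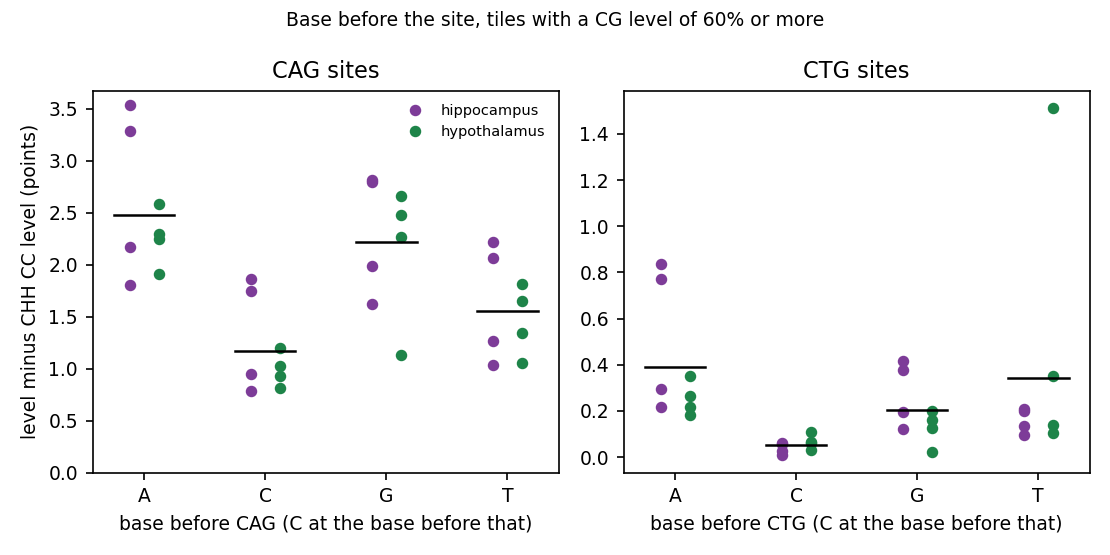
Level minus CHH CC level (percentage points) by the base before CAG (left) and before CTG (right), for sites with a C at the base before that and in tiles with a CG level of 60% or more; points are libraries coloured by tissue, bars are means of 8, and the vertical scales of the panels differ. In these tiles A before the site gives the highest mean for CAG (2.48) and C the lowest (1.17); before CTG, C is lowest (0.0524), while A (0.392) and T (0.343) change order without hippocampus 3 and 4 (0.255 and 0.390), with 1 hypothalamus library alone at 1.51 for T.

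Between chromosomes the mean of CAG over libraries ran from 1.21 points on chromosome 12 to 1.36 on chromosomes 13 and 14, and that of CTG from 0.175 on chromosome 12 to 0.226 on chromosome 9. The range was narrow but held within libraries. CAG on chromosome 13 was above chromosome 12 in 8 of 8 libraries, and CTG on chromosome 9 was above chromosome 12 in 8 of 8, chromosomes chosen as the extremes and so described without a test.

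Between the tissues no difference in these levels was detectable. CAG averaged 1.52 points ± 0.719 (SD, n = 4) in hippocampus and 1.06 ± 0.187 in hypothalamus, a difference (hypothalamus minus hippocampus) of -0.461 (two-sided exact permutation test over 70 assignments, p = 0.400, 0.533 after Benjamini-Hochberg adjustment over 4 tissue comparisons). For CTG the difference was -0.0272 (exact p = 0.886), for the strand difference at paired sites -0.437 (exact p = 0.314, adjusted 0.533) and for CAG minus CTG over all members -0.434 (exact p = 0.314, adjusted 0.533). The smallest p that 4 against 4 can give is 0.0286. The negative sign rested on hippocampus 3 and 4: without them CAG was 0.155 points higher in hypothalamus and the strand difference 0.0597 points higher, and no exact permutation test of 2 against 4 libraries can go below p = 0.0667. The background itself was lower in hypothalamus by a difference of -0.393 points (exact p = 0.371).

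The CAG step with tile CpG level, in which a constant background cancels, was 1.11 points ± 0.0714 in hippocampus and 1.3 ± 0.146 in hypothalamus (SD, n = 4). The difference of 0.186 points did not pass (exact permutation p = 0.0857), and hypothalamus 2, at 1.09, lay inside the hippocampus range. The CTG step differed by 0.0412 points (exact p = 0.286).

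Site by site, few members differed between tissues. Counts of methylated and unmethylated calls were compared in a quasi-binomial model over all contexts with the dispersion moderated by limma's squeezeVar. Of 43073 members with a mean level of 5% to 95%, 310 were called at an adjusted p under 0.05 and 10 points or more, 0.72%. Hypothalamus was the higher tissue at 220 of them and hippocampus at 90. The share was 5.77% over all 707398 positions tested, 8.28% at CG and 0.893% at CHH positions. CAG gave 288 of 41879 and CTG 22 of 1194. The split by direction moved with single libraries: the members higher in hypothalamus numbered 128 without hippocampus 2, 141 without hypothalamus 1 and 339 without hypothalamus 2, where 38 were higher in hippocampus. The libraries of both tissues did not overlap at 217 of the called CAG and 8 of the called CTG sites, and at 1759 of all tested CAG (4.20%) and 58 of all tested CTG sites (4.86%). The share without overlap over all contexts is not given here, so nothing particular to these members is read from theirs. Of the same 43073 members, 650 were called with the replicate number as a block and 126 with limma on logit levels. With at least 20 calls in every library 147 were called, of only 19363 tested. The shares over all contexts in these runs are not given here. When each position's own dispersion was used in place of the moderated one, 0 members were called, so the calls rest on sharing dispersion between positions. In that run 1759 of 43073 members had an unadjusted p under 0.05 in the quasi-binomial model, and 3778 had it in the moderated run. Neither run let the dispersion fall below 1, which can only raise p-values. These counts can therefore not be set against a chance share of 5%. Libraries were not equally free of background. With the 4 of lower CHH CC level alone (hippocampus 1 and 2, hypothalamus 2 and 3) 315 of 32929 members tested were called, 182 of them higher in hypothalamus. With the 4 of higher level 217 of 82294 were called, 114 of them higher in hypothalamus. Both runs set 2 against 2 libraries on other sets of members, and their shares over all contexts are not given here.

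The most different of the non-overlapping sites, chosen for this and so only described, were 3 CAG and 1 CTG. The model that called them took no account of replicate number, and the part of differences between animals was not tested. On chromosome 5 at 32463416 (plus) the CAG cytosine read 41.0%, 42.0%, 41.2% and 36.6% in hippocampus and 78.6%, 82.9%, 68.0% and 85% in hypothalamus, from 20 to 71 calls. It was even within each tissue, and the difference was 38.4 points (limma-moderated quasi-binomial adjusted p = 0.000147). On chromosome 8 at 92411432 (plus) the values were 4.35%, 0%, 0% and 4.76%, then 7.14%, 68.3%, 56.2% and 16.7%, where hypothalamus 1 nearly met the hippocampus range. On chromosome 16 at 75143468 (minus) hippocampus read 55.0%, 35.7%, 68.8% and 6.67% and hypothalamus 4.76%, 0%, 0% and 0%, from as few as 10 calls. On chromosome 20 at 50613728 (minus) the CTG cytosine read 37.7%, 38.1%, 91.3% and 31.5% in hippocampus and 30.6%, 4.23%, 0% and 29.4% in hypothalamus, with hippocampus 4 and hypothalamus 1 within 1 point of each other.

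Members that varied between libraries in steps were picked by a rule, so the steps come from the rule and only the agreement between libraries is described. Variable sites that failed the rule were not counted. With at least 20 calls in every library, 105 sites (95 CAG and 10 CTG) had every library in 1 of 3 classes, under 10%, 30% to 70% or over 85%, and not all in the same one. The class agreed between hippocampus 1 and hypothalamus 1 at 98.1% of these sites and between hippocampus 4 and hypothalamus 4 at 94.3%. Between hippocampus 2 and hypothalamus 2 it agreed at 48.6% and between hippocampus 3 and hypothalamus 3 at 41.0%, and among the other 24 pairs of libraries at 44.8% to 59.0%. The replicate numbers 1 and 4 thus went with shared site classes and the numbers 2 and 3 did not. The exact tests over 8 libraries treated all libraries as separate units. With the replicate number as a block the smallest exact p is 0.125. The part of sequence differences between animals in these classes was not tested.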

How the data were processed

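Hippocampus and hypothalamus RRBS libraries, 4 each, were grouped by their labels. The authors deposited, for each listed cytosine, the counts of methylated and of all calls, and a fraction that equals the first count over the second and served no test. No position in the files had fewer than 10 calls, and shallower positions were not analysed here. Bowtie and rn5 are named in the submitters' processing notes without versions or roles. The sources used here do not describe read trimming, methylation calling or duplicate reads, so calls need not be independent molecules, and limits from counts cover counting error only.

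Levels are methylated calls over all calls, summed over sites, in percent, and differences are in percentage points. Library values were compared with two-sided exact sign-flip or exact permutation tests, and p-values adjusted by the Benjamini-Hochberg method over 6 within-library and 4 tissue comparisons. Single sites were tested between tissues with a quasi-binomial model fitted to all contexts on chromosomes 1 to 20 and X (mean level 5% to 95%, Pearson dispersion moderated by limma 3.58.1 squeezeVar and not below 1), and between strands with limma. Both were also run on simulated data in which all positions shared 1 dispersion, unlike these data, and the outcome is not given here. Python 3.11.15, numpy 2.4.6, pandas 2.3.3, scipy 1.17.1 and R 4.3.3 were used. The gene table at hand is of another assembly, so no gene is named.

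The members, lists and tests were chosen with earlier results of these data known. Sites were named by a rule: among members with at least 20 calls in every library the 4 CAG and 2 CTG sites with the highest lowest library; among paired sites with at least 20 calls on each strand the 4 with the largest difference towards the CAG strand and the 2 towards the CTG strand in all 8 libraries, and the 2 with the highest lower strand; and among non-overlapping tissue calls the 2 of largest difference in each direction. Alternatives were the coverage minimum, unweighted site means, sites of 50% or more or of the deepest 1% left out, each library left out, the replicate number as a block, other backgrounds, tile and call limits, and other site tests.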

Additional observations from a re-analysis of the deposited data

Results flagged for a closer look

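Among 144 groups of 4 library values examined, 6 had 1 library far from the others, where chance alone gives about 1 in 20, or 7.2. In hypothalamus the mitochondrial CHH difference between positions followed by A and by T was 0.228 points in hypothalamus 1 and -0.0658 to -0.0281 in the other libraries. Over tiles of every CG level, CTCTG sites stood at 1.47 points over background in hypothalamus 4 against 0.0738 to 0.303 in the others, and CGCTG sites at -0.0782 against 0.0627 to 0.0907. The CAG site on chromosome 2 at 236748813 read 96.2% in hypothalamus 4 and 100% in the other hypothalamus libraries. The CAG site on chromosome 16 at 75143468 read 4.76% in hypothalamus 1 and 0% in the others. The CTG site on chromosome 20 at 50613728 read 91.3% in hippocampus 3 and 31.5% to 38.1% in the other hippocampus libraries.

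The X chromosome lies outside the members and their comparisons above, while the tissue model and its shares over all contexts, CG and CHH include it. CAG sites there had a mean level of 1.84% over libraries (0.852% to 3.79%) and CTG sites 1.13% (0.432% to 2.23%). After background subtraction this was 0.964 points for CAG, below every autosome, and 0.247 points for CTG, above every autosome in the mean over libraries. For CTG the order failed in some libraries. Hippocampus 1 read 0.130 points on X against 0.136 on chromosome 9. Hippocampus 3 read 0.356 against 0.369 on chromosome 18, and hypothalamus 4 read 0.461 against 0.462 on chromosome 2.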

How the results depend on the processing

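Up to 20 alternative settings were tried for each library-level result. CAG minus CTG ran from 0.796 to 1.34 points, the strand difference from 0.731 to 1.28, CAG minus CHH CA from -0.859 to -0.717, CTG minus CHH CT from -0.538 to -0.427, the CAG tile step from 1.08 to 1.24 and the CTG tile step from 0.146 to 0.216, each with 1 sign throughout. Leaving out 1 library gave 0.979 to 1.14, 0.913 to 1.08, -0.810 to -0.752, -0.498 to -0.451, 1.18 to 1.23 and 0.167 to 0.189 in that order. The next settings leave 4 values, whose smallest exact p is 0.125. With the replicate number as a block the 6 values were 1.09, 1.02, -0.788, -0.482, 1.21 and 0.181. In the 4 libraries of lower CHH CC level they were 0.836, 0.768, -0.717, -0.427, 1.17 and 0.146, and in the 4 of higher level 1.34, 1.28, -0.859, -0.538, 1.24 and 0.216. The numbers did not pair all libraries: deviations of same-numbered libraries from their tissue means correlated at 0.365, 0.0319, 0.0804 and 0.257 for replicates 1 to 4.

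The tissue differences had no stable sign, and none passed the test under any setting. Some settings could not pass: the smallest exact p is 0.333 with 2 against 2 libraries, 0.0667 with 2 against 4 and 0.125 with the replicate block. In order CAG, strand difference and CAG minus CTG, the tissue differences were 0.0271, 0.0439 and 0.0434 in the libraries of lower CHH CC level. Against mitochondrial backgrounds they were 0.0513, 0.0699 and 0.0728. Against the level in tiles under 20% they were 0.178, 0.143 and 0.146, with CTG at 0.0323 (lowest exact p 0.0571). Without hippocampus 3 and 4 they were 0.155, 0.0597 and 0.0574, with CTG at 0.0981. CTG alone also turned to 0.0103 and 0.0189 without hippocampus 3 or 4 and to 0.0157 and 0.00624 without hypothalamus 2 or 3. Leaving out 1 library gave -0.699 to -0.232 for CAG, -0.628 to -0.251 for the strand difference, -0.623 to -0.251 for CAG minus CTG and -0.105 to 0.0189 for CTG. Those without hippocampus 3 and 4, with mitochondrial backgrounds, with tile backgrounds and with libraries set apart by CHH CC level were added after seeing the data.

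In the test as reported 310 of 43073 members were called between tissues. Separate runs on the same members called 67 at a minimum of 20 points, 126 with limma on logit levels and 650 with the replicate block. With the dispersion of each position alone 0 were called. Among the sites with at least 20 calls per library 147 of 19363 were called. Leaving out 1 library gave 219 to 377. The share higher in hypothalamus moved from 71.0% to 89.9% without hypothalamus 2, 58.4% without hippocampus 2, 59.2% without hypothalamus 1, 57.8% and 52.5% with the libraries of lower or higher CHH CC level and 81.7% with limma. Against 1402 strand calls of 2483 tested sites as reported, separate runs gave 263 at a minimum of 20 points and 1337 to 1502 with 1 library left out. Among the sites with at least 20 calls per library 405 of 709 were called. The median member had 21 calls in hypothalamus 3, the shallowest library. Positions under 10 calls, and bases no column gives, could not be examined.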
